A study of Mus musculus with 12 samples.

Results

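The 42 genes described here encode ribosome biogenesis factors, the proteins that make, process and assemble ribosomal RNA in the nucleolus, together with spermidine synthase. They were taken by gene symbol from the deposited table of 47069 mouse genes, and each of the 42 symbols was found once. The choice of these genes was made with earlier results of these data known. RNA was sequenced from mouse B cell precursors, grown in hematopoietic stem cell cultures in Iscove's medium with interleukin 7. In 3 β-catenin libraries (numbers 244, 255 and 262) the cells carried Mb1-Cre, which is active in the B lineage, and the Catnb lox(ex3) allele, from which Cre removes exon 3 of the β-catenin gene, the exon that encodes the sites for its degradation. In 3 sorted control libraries (242, 249 and 251) the cells were control, with the titles giving WT and no label saying whether they carried Cre. Cells of both these groups were sorted on B220 and lysed directly. In 3 inhibitor libraries and 3 untreated libraries (242, 249 and 251 in each) unsorted wildtype precursors were kept overnight with 40 nM LY2090314, an inhibitor of the kinase GSK3, or without it. The labels do not say what the numbers stand for or whether same-numbered libraries came from 1 mouse, so p-values measure the spread between these libraries.

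Ribosome production starts with RNA polymerase I, which transcribes the large ribosomal RNA precursor. Small nucleolar ribonucleoproteins (snoRNPs) guide its chemical modification, box C/D particles for methylation and box H/ACA particles for pseudouridylation, and sets of processing factors then cut the precursor and assemble the small and the large subunit. The transcription factor MYC is known as an activator of many of these genes and binds the E-box CACGTG. GSK3 phosphorylates β-catenin for degradation, and it also phosphorylates MYC, so Myc RNA is set beside the 42 factors below.

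Promoter windows of 300 bases, 250 before and 50 from the RefSeq start (build GRCm38.p6), were matched for 36 of the 42 genes. An E-box was found in 7 of these 36 (19.4%), namely Nop2, Grwd1, Utp20, Pes1, Mybbp1a, Tsr1 and Wdr43, against 1050 of 8751 tested genes with a window (12%) and 7.15% of all 32851 windows. The motif reads the same on both strands. The sequences below show 3 promoters with the E-box in capitals and, for contrast, that of Ppan, the factor with the lowest log2 fold change in β-catenin cells, whose window holds none. Those printed were chosen among genes whose values are given below. The 3 with an E-box were all lower in β-catenin cells at an adjusted p under 0.05 in limma. Tsr1 and Utp20, which also hold the motif, did not pass there (adjusted p 0.0548 and 0.0798).
Nop2 (chr6:125131633-125131932, plus strand): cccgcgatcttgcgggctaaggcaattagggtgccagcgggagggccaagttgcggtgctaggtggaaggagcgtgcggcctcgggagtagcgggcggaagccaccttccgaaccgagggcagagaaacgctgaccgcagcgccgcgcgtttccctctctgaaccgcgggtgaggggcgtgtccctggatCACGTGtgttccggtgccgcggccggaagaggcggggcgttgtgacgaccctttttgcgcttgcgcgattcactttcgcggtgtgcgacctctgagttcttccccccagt
Pes1 (chr11:3963725-3964024, plus strand): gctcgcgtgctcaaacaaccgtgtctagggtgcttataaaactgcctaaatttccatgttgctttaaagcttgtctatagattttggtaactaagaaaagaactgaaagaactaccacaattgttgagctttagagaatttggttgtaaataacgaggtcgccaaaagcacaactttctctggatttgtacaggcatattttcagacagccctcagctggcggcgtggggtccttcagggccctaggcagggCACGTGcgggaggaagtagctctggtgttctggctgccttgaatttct
Mybbp1a (chr11:72441077-72441376, plus strand): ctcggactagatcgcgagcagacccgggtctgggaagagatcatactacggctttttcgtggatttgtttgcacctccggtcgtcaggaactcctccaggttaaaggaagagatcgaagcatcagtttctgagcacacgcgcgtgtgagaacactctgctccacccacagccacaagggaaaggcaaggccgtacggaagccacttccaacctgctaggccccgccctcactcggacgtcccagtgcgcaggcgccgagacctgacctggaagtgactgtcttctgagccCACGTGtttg
Ppan (chr9:20887925-20888224, plus strand): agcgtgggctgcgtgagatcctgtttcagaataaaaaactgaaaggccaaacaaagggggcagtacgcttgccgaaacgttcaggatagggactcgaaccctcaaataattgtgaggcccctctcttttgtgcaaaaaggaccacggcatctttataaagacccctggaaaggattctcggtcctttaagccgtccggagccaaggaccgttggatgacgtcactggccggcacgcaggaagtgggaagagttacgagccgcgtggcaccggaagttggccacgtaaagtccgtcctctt
The E-box began 60 bases before the start in Nop2, and at base 3 and base 41 counted from the start in Pes1 and Mybbp1a. In β-catenin cells the 7 factors with the motif had a median log2 fold change of -0.61 and the 29 without it -0.54, against sorted controls. With the inhibitor the medians were -0.39 for the 7 with the motif and -0.47 for the 29 without it, against untreated cells.

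Some libraries stood apart. All 42 factors were far above the counting floor, with 700 to 65882 counted fragments per gene and library, out of 31943162 to 49809635 per library. Summed FPKM (fragments per kilobase of gene, scaled to library size) of 12 pro/pre-B cell markers was 48.9 in β-catenin library 244, 1673 in 255 and 1297 in 262, against 6149 to 6602 in sorted controls; library 244 thus nearly lacked the markers of the cells it is labelled as. That library also held both Xist (169 FPKM) and Ddx3y (19.5 FPKM), which no other library did above 1 FPKM each. Summed markers of NK cells and innate lymphoid cells were 744 to 3545 FPKM in β-catenin libraries, against 20.3 to 44.01 in sorted controls, and those of T cells were 346 to 754 FPKM in β-catenin libraries, against 46.7 to 59.5 in sorted controls. None of the 10 markers of either list was at 0 throughout a group. In the unsorted cells the pre-B sum was 999 to 1791 FPKM with the inhibitor and 6124 to 8222 without it. The T cell sum was 266 to 389 FPKM with the inhibitor and 105 to 129 without it, and both libraries numbered 249 held high sums of 10 myeloid markers (7707 FPKM with the inhibitor, 7671 without), against 54.1 to 266 in the other inhibitor libraries and 75.4 to 485 in the other untreated ones. Inhibitor library 249 also had a sum of 959 FPKM for 6 erythroid and megakaryocyte markers, against 29.6 and 51.6 in the other inhibitor libraries, and untreated library 249 had 93.4, against 12.0169 and 12.8 in the other untreated libraries. The myeloid sum was 597 FPKM in β-catenin library 244, 44.6 in 255 and 120 in 262, against 13.2 to 31.1 in sorted controls. Of the defining markers, Itgam was at 0 in all sorted controls and all inhibitor libraries, and Hbb-bs in all β-catenin, inhibitor and untreated libraries. Ctnnb1, the β-catenin gene, had 228 to 331 FPKM in β-catenin libraries and 237 to 284 FPKM in sorted controls; a value per gene does not show the loss of exon 3. In bulk RNA, fewer cells of a type and less RNA per cell cannot be told apart, and the part of these cell mixtures in the changes below was not tested.

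**Figure D1:**
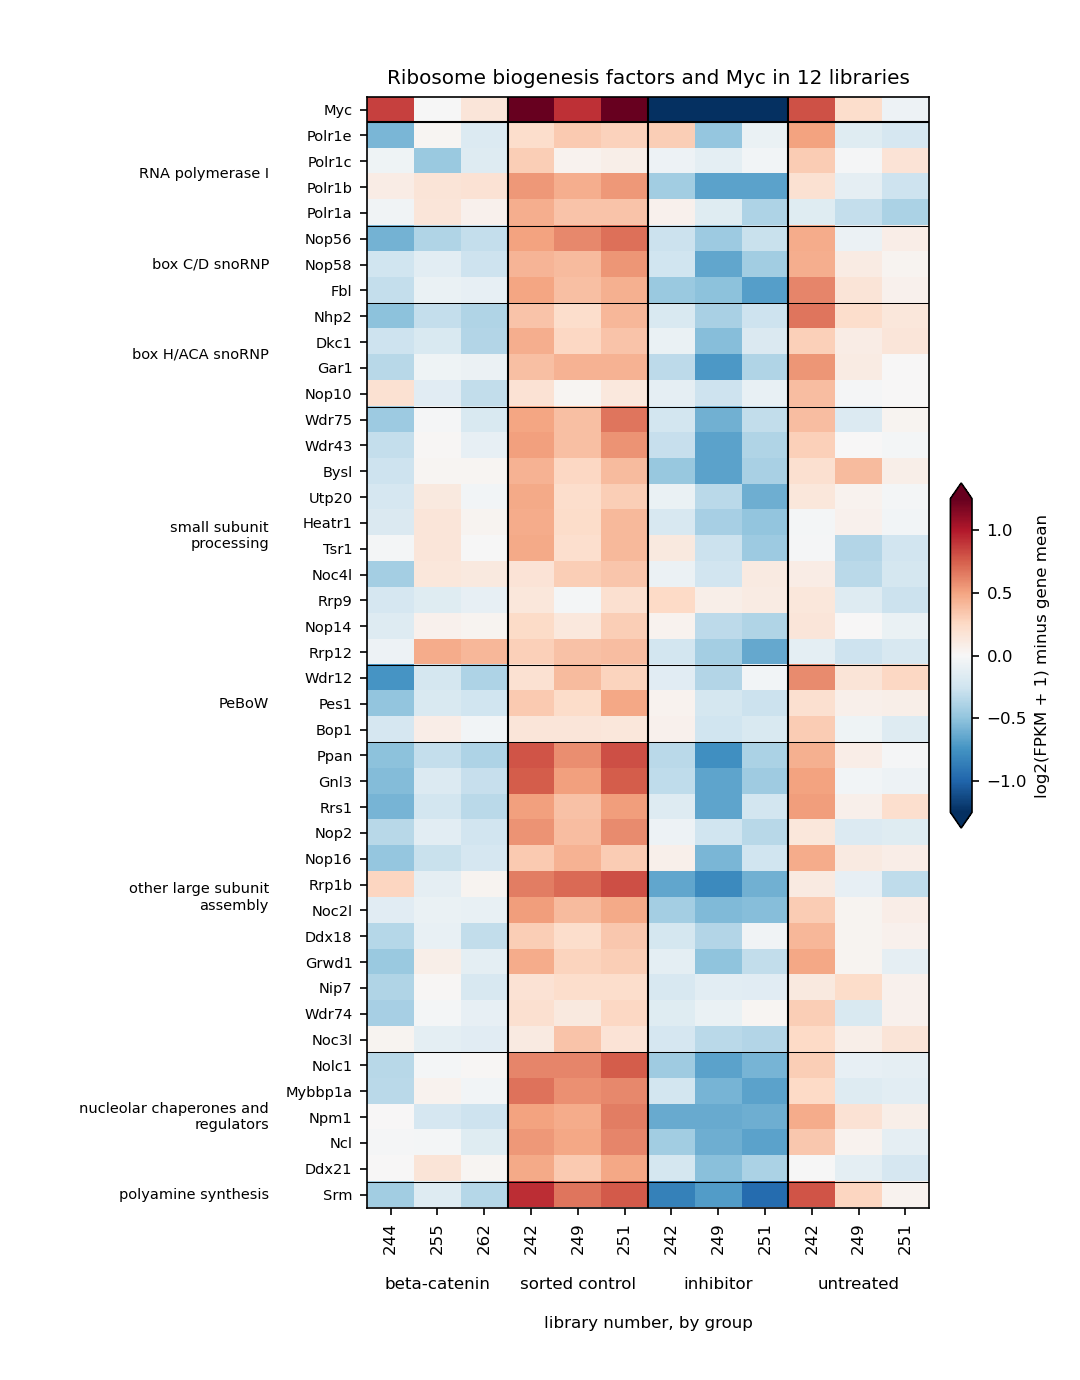
Each row is a gene, Myc first and then the 42 factors by role, and each column a library; colour is log2(FPKM + 1) minus the mean of that gene over the 12 libraries, with values beyond the ends of the scale shown in its end colours. The 3 sorted control columns are the reddest for most factors, while β-catenin columns are mostly pale or blue and inhibitor columns mostly blue.

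Myc (chr15:61985391-61990374, plus strand; gene positions here are those of GENCODE M21 on GRCm38) was lower in both comparisons. It had 92.3, 50.3 and 56.1 FPKM in β-catenin libraries 244, 255 and 262, against 163, 96.2 and 146 FPKM in sorted controls 242, 249 and 251. The groups did not overlap, although the highest β-catenin library and the lowest control were close (log2 fold change -1.03 ± 0.29 SE, adjusted p = 0.0372). Inhibitor libraries had 12.6, 12.8 and 9.88 FPKM and untreated libraries 88.5, 58.8 and 48.1 FPKM, in the order 242, 249 and 251, so every treated library lay far below every untreated one (log2 fold change -2.33 ± 0.23 SE, adjusted p = 0.00142). The call in β-catenin cells was lost without β-catenin library 255 or 262 (adjusted p 0.0783 and 0.115) and without sorted control 242 or 251 (0.120 and 0.128), and also with no filter on low values (0.0749).

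In β-catenin cells most of the ribosome biogenesis factors were lower than in sorted controls. Calls were made in each role, from 3 of the 10 factors of small subunit processing to all 5 nucleolar chaperones and regulators. Of the 42 genes, 30 passed the test as lower and 0 as higher, where 17.7% of the 12813 genes tested were called lower and 18.6% higher; a call is a Benjamini-Hochberg adjusted p under 0.05 in limma. At an unadjusted p under 0.05, 37 factors were lower and 0 higher, where 3126 and 3019 of the 12813 genes were. Voom on the recovered fragments called 29 factors lower and 0 higher, and 2097 of all genes lower and 2055 higher. All 42 had a log2 fold change below 0, as did 52.0% of all genes. Their median was -0.57, from -1.12 in Ppan to -0.083 in Rrp12, against -0.024 over all genes. In 40 factors every β-catenin library lay below every sorted control, where 29.4% of all genes did so; Nop10 and Rrp12 overlapped.

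Of the 4 RNA polymerase I subunits among the 42, 3 were called lower, with a median log2 fold change of -0.37 over the 4. In all 4 every β-catenin library lay below every sorted control. Polr1a and Polr1b, which form the catalytic core, and Polr1e passed the test. Polr1e had 13.2, 20.4 and 17.7 FPKM in β-catenin libraries and 23.6, 25.6 and 24.7 FPKM in sorted controls (log2 fold change -0.52 ± 0.16 SE, adjusted p = 0.0493). Polr1b had 27.5, 28.7 and 29.1 FPKM in β-catenin libraries, against 37.7, 35.4 and 37.7 FPKM in sorted controls (log2 fold change -0.37 ± 0.075 SE, adjusted p = 0.0150). In both genes the groups were apart, with library 244 lowest. Polr1c, a subunit shared with RNA polymerase III, had 59.1, 44.3 and 54.9 FPKM in β-catenin libraries and 76.4, 63.5 and 64.6 FPKM in sorted controls, and did not pass (log2 fold change -0.37 ± 0.14 SE, adjusted p = 0.0788). Leaving out library 244 brought Polr1c to an adjusted p of 0.0322. Without β-catenin library 262 and without sorted controls 242, 249 or 251 in turn, Polr1e had adjusted p values of 0.108, 0.115, 0.144 and 0.142, and Polr1b of 0.0508, 0.0648, 0.0506 and 0.0764. Polr1e also lost its call with a pseudocount of 0.1, with no filter on low values, with voom and with all 12 libraries in the fit (adjusted p 0.0505, 0.0857, 0.0563 and 0.111), so its call ended under 8 settings. Polr1c passed with median centring and with all 12 libraries in the fit (adjusted p 0.0371 and 0.0399).

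Box C/D snoRNPs carry the methyltransferase, and the 3 of their core proteins among the 42 fell. Nop56 (chr2:130274430-130279313, plus strand) had 151, 176 and 186 FPKM in β-catenin libraries, against 324, 347 and 368 FPKM in sorted controls (log2 fold change -1.02 ± 0.10 SE, adjusted p = 0.00251). Nop58, its partner in the particle, had 103, 112 and 102 FPKM in β-catenin libraries and 165, 162 and 179.9 FPKM in sorted controls (log2 fold change -0.67 ± 0.078 SE, adjusted p = 0.00338). Fibrillarin (Fbl), the methyltransferase itself, had 135, 158 and 156 FPKM in β-catenin libraries, against 235, 217 and 227 FPKM in sorted controls (log2 fold change -0.60 ± 0.087 SE, adjusted p = 0.00568). In each of the 3 the lowest control was well above the highest β-catenin library.

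Of the 4 box H/ACA proteins 3 were called lower. Nhp2 had 83.2, 96.8 and 92.1 FPKM in β-catenin libraries, against 153, 139.6 and 159.9 FPKM in sorted controls (log2 fold change -0.73 ± 0.091 SE, adjusted p = 0.00407). Dyskerin (Dkc1), the pseudouridine synthase, had 117, 123 and 109 FPKM in β-catenin libraries and 193, 168 and 180.3 FPKM in sorted controls (log2 fold change -0.63 ± 0.086 SE, adjusted p = 0.00505). Gar1 had 74.7, 91.8 and 90.2 FPKM in β-catenin libraries, against 124, 129 and 129 FPKM in sorted controls (log2 fold change -0.57 ± 0.098 SE, adjusted p = 0.00900). The smallest subunit, Nop10, was the exception: library 244 (64.3 FPKM) was above every sorted control, and its log2 fold change of -0.20 did not pass (adjusted p = 0.302). Without sorted control 251 the adjusted p of Gar1 was 0.0508.

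The 10 factors of small subunit processing had the median log2 fold change closest to 0 of these roles, -0.35, and 3 were called lower. Wdr75 and Wdr43 belong to the early subcomplex that binds the nascent precursor. Wdr75 (chr1:45795166-45823619, plus strand) had 28.6, 38.9 and 34.5 FPKM in β-catenin libraries, against 56.1, 51.4 and 63.2 FPKM in sorted controls (log2 fold change -0.73 ± 0.14 SE, adjusted p = 0.0121). Wdr43 had 28.9, 36.1 and 33.3 FPKM in β-catenin libraries and 51.3, 46.7 and 53.3 FPKM in sorted controls (log2 fold change -0.61 ± 0.11 SE, adjusted p = 0.00988). Bysl, which acts late in small subunit maturation, had 8.70, 10.8 and 10.8 FPKM in β-catenin libraries, against 14.6, 12.9 and 14.2 FPKM in sorted controls (log2 fold change -0.43 ± 0.12 SE, adjusted p = 0.0378). The groups of all 3 were apart. Nop14, Noc4l, Rrp9, Rrp12, Tsr1, Utp20 and Heatr1 did not pass, with log2 fold changes from -0.37 to -0.083. These calls were lost when some single libraries were left out. The adjusted p was 0.0592 for Wdr75 and 0.0552 for Wdr43 without sorted control 251, and 0.0505 for Wdr75 without sorted control 242. For Bysl it was 0.0779, 0.123, 0.0815 and 0.132 without β-catenin library 262 or sorted controls 242, 249 and 251 in turn. Its log2 fold changes were then -0.48, -0.40, -0.48 and -0.41. Of all genes, 17.7% were called lower with all 6 libraries. That share was 8.98%, 6.02%, 6.08% and 4.2% in these 4 fits. With no filter on low values the adjusted p of Bysl was 0.0639.

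In large subunit assembly, the PeBoW complex (Pes1, Bop1 and Wdr12) is needed to process the precursor of the large subunit RNA. Pes1 had 41.5, 51.6 and 49.3 FPKM in β-catenin libraries, against 74.3, 69.1 and 82.5 FPKM in sorted controls (log2 fold change -0.66 ± 0.11 SE, adjusted p = 0.00944). Wdr12 had 10.5, 15.4 and 13.6 FPKM in β-catenin libraries and 20.8, 24.0 and 22.2 FPKM in sorted controls (log2 fold change -0.74 ± 0.15 SE, adjusted p = 0.0157). Bop1 had 41.0 to 50.4 FPKM in β-catenin libraries and 52.5 to 53.2 FPKM in sorted controls, and did not pass (log2 fold change -0.20, adjusted p = 0.135). In Pes1, Wdr12 and Bop1 alike every β-catenin library lay below every sorted control. The call of Wdr12 was lost without β-catenin library 262 (adjusted p = 0.0516) and without sorted control 242, 249 or 251 (0.0512, 0.0665 and 0.0686).

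The other 12 large subunit factors held 10 called lower. Ppan (chr9:20888175-20892178, plus strand), an early assembly factor known in yeast as Ssf1, had 59.7, 69.3 and 65.0 FPKM in β-catenin libraries, against 148, 128 and 150.3 FPKM in sorted controls (log2 fold change -1.12 ± 0.097 SE, adjusted p = 0.00176). Gnl3, the nucleolar GTP-binding protein nucleostemin, had 35.9, 46.5 and 42.9 FPKM in β-catenin libraries and 89.5, 75.6 and 89.5 FPKM in sorted controls (log2 fold change -1.01 ± 0.13 SE, adjusted p = 0.00399). In both genes the highest β-catenin library was far under the lowest control. Nop2 (chr6:125131909-125144753, plus strand), a ribosomal RNA methyltransferase, had 42.6, 49.5 and 46.0 FPKM in β-catenin libraries, against 80.7, 71.3 and 82.5 FPKM in sorted controls (log2 fold change -0.75 ± 0.095 SE, adjusted p = 0.00415). Rrs1, Nop16, Rrp1b, Noc2l, Ddx18, Grwd1 and Nip7 were also called lower, with log2 fold changes from -0.85 in Rrs1 to -0.39 in Nip7. Wdr74 (-0.38) and Noc3l (-0.29) did not pass.

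All 5 nucleolar chaperones and regulators fell. Nolc1, a chaperone of snoRNPs, had 31.6, 39.6 and 40.7 FPKM in β-catenin libraries, against 62.2, 62.1 and 68.7 FPKM in sorted controls (log2 fold change -0.78 ± 0.12 SE, adjusted p = 0.00643). Mybbp1a, a nucleolar regulator of RNA polymerase I, had 103, 134 and 128 FPKM in β-catenin libraries and 210.3, 195 and 199 FPKM in sorted controls (log2 fold change -0.73 ± 0.11 SE, adjusted p = 0.00706). Nucleophosmin (Npm1), the most abundant of the 42 per unit length, had 668, 574 and 556 FPKM in β-catenin libraries, against 942, 919.8 and 1033 FPKM in sorted controls (log2 fold change -0.69 ± 0.10 SE, adjusted p = 0.00629). The groups stood apart in all 3, as they did in nucleolin (Ncl) and the helicase gene Ddx21. Srm (chr4:148591503-148594993, plus strand), which makes spermidine, had 68.6, 83.2 and 72.5 FPKM in β-catenin libraries and 178, 149 and 160.1 FPKM in sorted controls (log2 fold change -1.11 ± 0.11 SE, adjusted p = 0.00227). Srm and Ppan were the only factors of the 42 with a log2 fold change under that of Myc in β-catenin cells, where 6.59% of all genes tested had one.

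Without library 244, whose B cell markers were lowest, 32 factors were called lower in β-catenin cells, where 21.4% of all genes were. They included 29 of the 30 called with it; Nip7 was lost, and Nop10, Polr1c and Wdr74 were gained. The log2 fold change of Rrp12 was then above 0. Without sorted control 251 the count was 17, where 4.2% of all genes were called lower. Centring each library on its median moved the log2 fold change of the median gene by -0.11, to -0.14, and called 39 factors lower, with 25.7% of all genes lower and 37.0% of all calls higher, against 51.3% of all calls before centring.

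**Figure D2:**
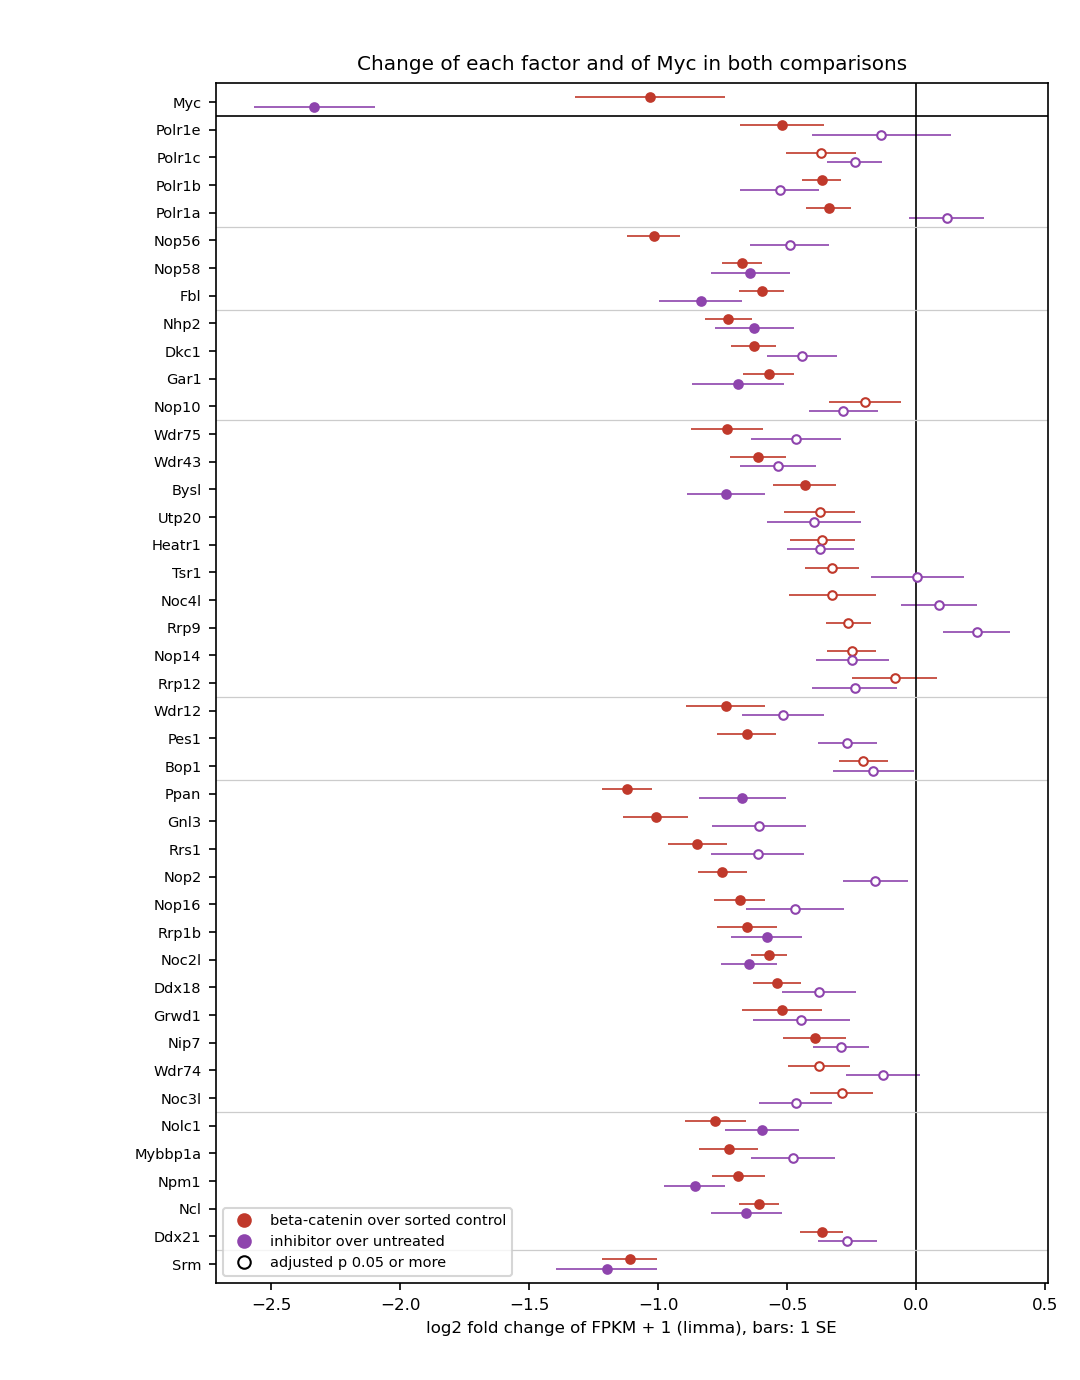
Log2 fold change of FPKM + 1 for Myc and the 42 factors in β-catenin over sorted control (red) and inhibitor over untreated (purple), with bars of 1 SE from limma. Open points did not pass an adjusted p of 0.05 in the main fits, which did not use the library number as a block. All 42 red points lie below 0, 38 of the 42 purple points do, and the purple point of Myc at -2.33 lies left of all others.

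With the GSK3 inhibitor fewer of the factors passed the test, all of them as lower than in untreated cells. In the main fit, which took no account of the library numbers, 12 of the 42 genes passed as lower and 0 as higher. There 9.6% of the 12685 genes tested were called lower and 8.47% higher. At an unadjusted p under 0.05, 26 were lower and 0 higher, where 2223 and 1851 of the 12685 genes were. Voom called 14 factors lower and 0 higher, and 1216 of all genes lower and 1073 higher. The median log2 fold change was -0.47, from -1.20 in Srm to 0.23 in Rrp9, against -0.029 over all genes. It was below 0 in 38 factors, as in 53.1% of all genes, and not in Noc4l, Polr1a, Rrp9 and Tsr1. In 32 factors every inhibitor library lay below every untreated one, where 20.8% of all genes did so. Within the pairs of the same number, 36 factors were lower in all 3 pairs, where 32.3% of all genes were, and Polr1a and Rrp9 were higher in all 3. Same-numbered libraries deviated together, so the fit was repeated with the number as a block; 23 factors were then called lower, including all 12, where 16.0% of all genes were.

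Srm changed most. It had 51.5, 57.3 and 47.5 FPKM in inhibitor libraries 242, 249 and 251, against 162, 112 and 96.4 FPKM in untreated libraries of the same numbers (log2 fold change -1.20 ± 0.20 SE, adjusted p = 0.00929). Npm1 had 431, 429 and 436 FPKM in inhibitor libraries and 915, 754 and 699.6 FPKM in untreated libraries (log2 fold change -0.86 ± 0.12 SE, adjusted p = 0.00506). Its 3 treated values were within a few FPKM of each other, while the untreated ones spread widely. Nolc1 had 29.4, 24.9 and 26.6 FPKM in inhibitor libraries, against 50.04, 37.6 and 37.2 FPKM in untreated libraries (log2 fold change -0.60 ± 0.15 SE, adjusted p = 0.0351). Ncl was called too, at -0.66 (adjusted p = 0.0212). Mybbp1a had 111, 87.1 and 81.6 FPKM in inhibitor libraries and 155, 117 and 119 FPKM in untreated libraries; it passed only with the block (adjusted p = 0.0954 without it and 0.00610 with it). All of these were lower in each of the 3 pairs.

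Among snoRNP proteins, Fbl had 120.1, 116 and 103 FPKM in inhibitor libraries, against 256, 186 and 174 FPKM in untreated libraries (log2 fold change -0.83 ± 0.16 SE, adjusted p = 0.0160). Nop58 had 103, 77.8 and 90.2 FPKM in inhibitor libraries and 168, 132 and 126 FPKM in untreated libraries (log2 fold change -0.64 ± 0.15 SE, adjusted p = 0.0329). Nop56 had 190.1, 167 and 189 FPKM in inhibitor libraries and 317, 217 and 243 FPKM in untreated libraries; it passed with the block only (adjusted p = 0.0734 without it, 0.0118 with it). Each of these 3 box C/D proteins was thus lower in every pair, with untreated library 242 the highest. Gar1 had 75.8, 57.5 and 73.0 FPKM in inhibitor libraries, against 139.6, 102 and 95.4 FPKM in untreated libraries (log2 fold change -0.69 ± 0.18 SE, adjusted p = 0.0415). Nhp2 had 105, 90.1 and 99.7 FPKM in inhibitor libraries and 190.4, 139 and 132 FPKM in untreated libraries (log2 fold change -0.63 ± 0.15 SE, adjusted p = 0.0370). Dkc1, at 133, 97.1 and 124 FPKM in inhibitor libraries and 172, 149.8 and 156 FPKM in untreated libraries, passed with the block only (adjusted p = 0.0715 without it, 0.0129 with it). Nop10 did not pass in either fit.

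In subunit assembly, Bysl had 7.34, 6.27 and 7.75 FPKM in inhibitor libraries, against 12.3, 14.2 and 11.2 FPKM in untreated libraries (log2 fold change -0.74 ± 0.15 SE, adjusted p = 0.0202). Ppan had 67.3, 49.7 and 64.8 FPKM in inhibitor libraries and 117, 90.5 and 84.6 FPKM in untreated libraries (log2 fold change -0.67 ± 0.17 SE, adjusted p = 0.0386). Gnl3, at 42.2, 32.9 and 38.3 FPKM in inhibitor libraries and 75.0, 51.3 and 50.5 FPKM in untreated libraries, had an adjusted p of 0.0649 without the block and 0.00742 with it. These 3 genes were lower in every pair and their groups did not overlap. Noc2l (-0.65) and Rrp1b (-0.58) were the other large subunit factors called. Wdr43, with 29.2, 22.1 and 27.3 FPKM in inhibitor libraries and 44.1, 36.0 and 35.1 FPKM in untreated libraries, had an adjusted p of 0.0507 without the block and 0.0120 with it. Wdr75, with 33.4, 25.7 and 31.6 FPKM in inhibitor libraries and 51.9, 35.0 and 40.5 FPKM in untreated libraries, had 0.121 without the block and 0.0162 with it. In PeBoW, Wdr12 had 16.3, 13.8 and 17.7 FPKM in inhibitor libraries and 27.7, 20.4 and 21.8 FPKM in untreated libraries, with an adjusted p of 0.0720 without the block and 0.0253 with it. Pes1, at 60.8, 50.4 and 48.6 FPKM in inhibitor libraries and 68.0, 61.7 and 62.2 FPKM in untreated libraries, did not pass in either (0.162 without the block, 0.0726 with it).

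None of the 4 RNA polymerase I subunits was called with the inhibitor, and 1, Polr1b, was called with the block. Polr1b had 18.7, 15.8 and 15.7 FPKM in inhibitor libraries, against 29.4, 23.6 and 21.2 FPKM in untreated libraries, with an adjusted p of 0.0601 without the block and 0.0145 with it. Polr1c had 58.7, 56.2 and 59.9 FPKM in inhibitor libraries and 77.1, 61.0 and 69.5 FPKM in untreated libraries (log2 fold change -0.24 ± 0.11 SE, adjusted p = 0.186). Polr1e had 25.2, 14.1 and 18.9 FPKM in inhibitor libraries and 28.9, 18.0 and 17.3 FPKM in untreated libraries (log2 fold change -0.14 ± 0.27 SE, adjusted p = 0.779). Polr1a had 25.8, 22.2 and 18.7 FPKM in inhibitor libraries and 22.2, 19.997 and 18.7 FPKM in untreated libraries (log2 fold change 0.12 ± 0.15 SE, adjusted p = 0.634). The groups of Polr1a and Polr1e overlapped, and Polr1a was the higher in treated cells in each pair by a small margin. Without inhibitor library 242, 249 or 251 the count of factors called was 3, 6 or 3, and without untreated library 242, 249 or 251 it was 4, 5 or 7. The shares of all genes called lower were 4.75%, 10.1% and 5.43% without inhibitor library 242, 249 and 251, and 4.07%, 6.36% and 4.07% without untreated library 242, 249 and 251. Median centring called 6, where 8.03% of all genes were lower. Without both libraries numbered 249, which held the myeloid markers, 8 factors were called, 6 of them shared with the 12, where 10.7% of all genes were called lower.

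For single genes with the inhibitor, the calls of Srm and Npm1 held whichever library was left out. The adjusted p of Nop58 ran from 0.0534 to 0.0989 when 1 library was left out, that of Ppan from 0.0623 to 0.108, that of Nolc1 from 0.0564 to 0.107, that of Gar1 from 0.0675 to 0.0976 and that of Nhp2 from 0.0572 to 0.105. None of these 5 was called without any 1 of the 6 libraries. The fits with a library left out did not use the number as a block. With the block and all 6 libraries the adjusted p was 0.00268 for Nop58, 0.00549 for Ppan, 0.00656 for Nolc1, 0.00528 for Gar1 and 0.00540 for Nhp2. With no filter on low values the adjusted p was 0.0745 for Nop58, 0.0864 for Ppan, 0.0703 for Nolc1, 0.0934 for Gar1 and 0.0835 for Nhp2, and with median centring it was 0.0632, 0.0703, 0.0677, 0.0731 and 0.0688 for these genes in the same order. Fbl was not called without inhibitor library 242 or 251 (adjusted p 0.0517 and 0.0655). Bysl was not called without inhibitor library 242 or 251 (0.0668 and 0.0526) or untreated library 242 or 249 (0.0696 and 0.0642). With the block and all 6 libraries the adjusted p was 0.00138 for Fbl and 0.0157 for Bysl.

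**Figure D3:**
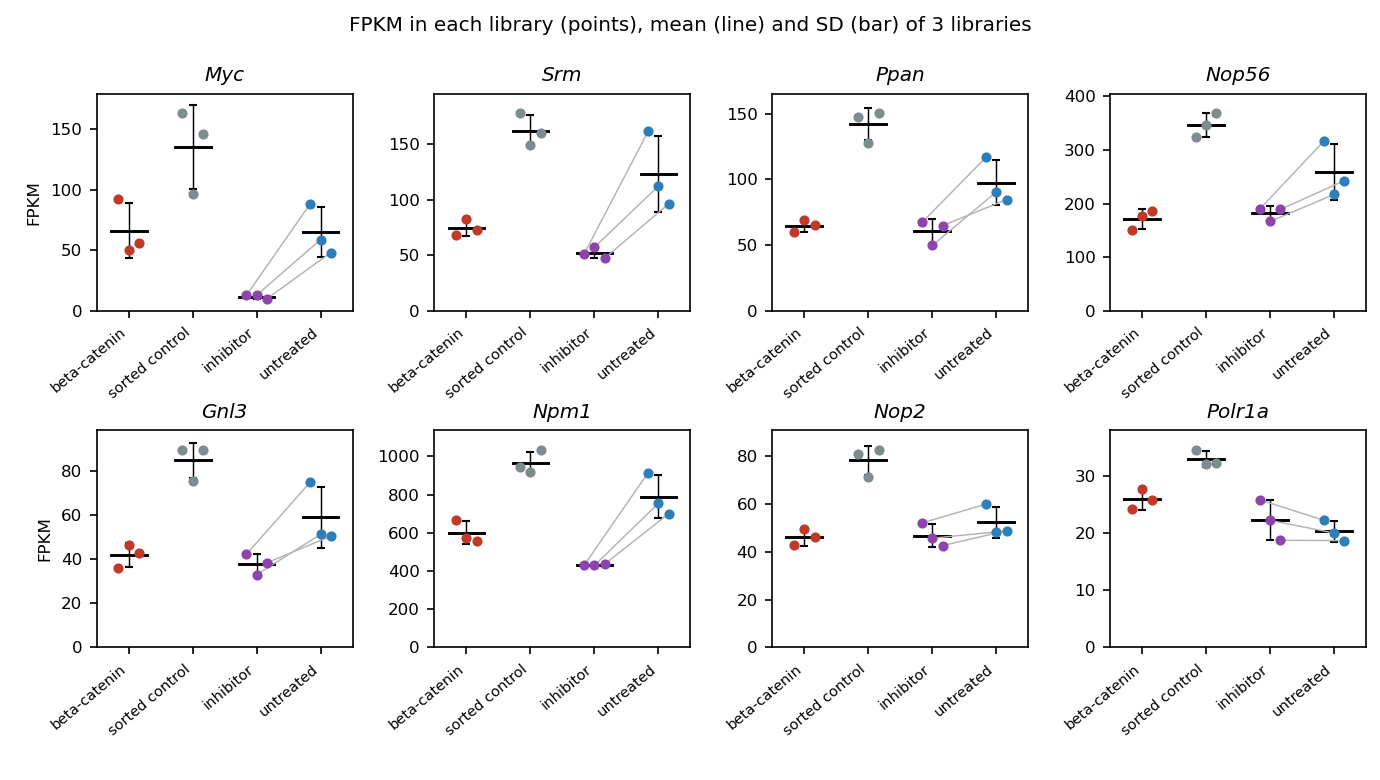
FPKM of Myc and 7 factors in each library (points), with the mean (line) and SD (bar) of 3 libraries per group; grey lines join inhibitor and untreated libraries of the same number. In β-catenin libraries Srm lies at 68.6 to 83.2 FPKM, below the sorted controls at 149 to 178, and with the inhibitor at 47.5 to 57.3, below the untreated cells at 96.4 to 162.

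The factors lower in the 2 comparisons overlapped. All 12 called with the inhibitor were also called in β-catenin cells, which is 100% of the 12 and 40.0% of the 30. Over all genes tested in both, 645 were lower in both, which is 54.2% of the 1191 lower with the inhibitor and 29.99% of the 2151 lower in β-catenin cells. With the block all 23 factors lower with the inhibitor were among the 30. The 2 comparisons share no library, but sorted controls and unsorted libraries bear the same 3 numbers.

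The sizes of the 2 effects were then compared in a model of all 12 libraries. The β-catenin effect minus the inhibitor effect was called lower for 1 of the 42 factors and higher for 0, where 3.05% of all genes were called lower and 6.07% higher. At an unadjusted p under 0.05, 5 were lower and 0 higher, where 1559 and 2170 of the 13861 genes tested were. Voom called 0 factors in either direction, and 231 of all genes lower and 380 higher. In data simulated with a fixed spread, the limma contrast called 8.955% of genes changed 1.5-fold and 49.25% of those changed 2-fold. A factor not called here may therefore still have effects of unlike size. The 1 factor called in limma was Nop2, with a difference of -0.59 ± 0.16 on the log2 scale (SE, adjusted p = 0.0449). Its mean was 46.0 FPKM in β-catenin and 46.7 in inhibitor libraries, against 78.2 in sorted controls and 52.3 in untreated libraries. Untreated libraries were themselves lower in Nop2 than sorted controls (log2 fold change -0.58, limma adjusted p = 0.0289). These 2 groups differ in the sort and the night in culture, and the part of this in the difference was not tested. Nop2 had 52.0, 45.6 and 42.5 FPKM in inhibitor libraries and 59.8, 48.2 and 48.8 FPKM in untreated libraries (log2 fold change -0.16 ± 0.13 SE, adjusted p = 0.454), and it was lower with the inhibitor in all 3 pairs, with differences of -0.20, -0.079 and -0.19 on the log2 scale in 242, 249 and 251. Taken without the pairs its inhibitor and untreated groups overlapped, and its β-catenin and sorted control groups did not. With no filter and with voom the adjusted p was 0.0750 and 0.0637. Leaving out any 1 of 9 libraries ended this call (β-catenin 244 or 262, sorted controls 242, 249 or 251, inhibitor 242 or 251, untreated 249 or 251), with adjusted p values of 0.0767, 0.0934, 0.104, 0.0624, 0.116, 0.104, 0.0589, 0.101 and 0.0975. The median difference over the 42 was -0.10, against 0.0040 over all genes, and it was below 0 in 29 factors, where 49.7% of all genes were. Median centring moved the median difference of all genes by -0.13, gave 36 factors below 0, and made 51.9% of all calls higher, against 66.5% without it. Myc had a difference of 1.30 ± 0.40 (SE) that did not pass (adjusted p = 0.0706); without β-catenin library 255 the adjusted p was 0.0460.

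Set beside Myc, the log2 fold changes of the factors were the smaller ones in most cases. Myc had -1.03 and the median factor -0.57 in β-catenin cells, and with the inhibitor Myc had -2.33 and the median factor -0.47. No factor of the 42 had a log2 fold change under that of Myc with the inhibitor, where 0.883% of all genes tested had one. By library, the median over the 42 factors of log2(FPKM + 1) minus the mean of each gene was -0.30 in β-catenin library 244, -0.066 in 255 and -0.13 in 262, against 0.46, 0.36 and 0.41 in sorted controls 242, 249 and 251. Library 244 had the highest Myc of the β-catenin libraries and the lowest median of the factors. Not every factor was lowest there: Npm1, Ncl, Noc3l, Rrp1b, Nop10 and Polr1c were highest in 244 among the β-catenin libraries. Inhibitor libraries had medians of -0.21, -0.49 and -0.38, against 0.31, 0.021 and -0.0048 in untreated libraries 242, 249 and 251. Untreated library 242 was the highest of the unsorted libraries both for the factors and for Myc.

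**Figure D4:**
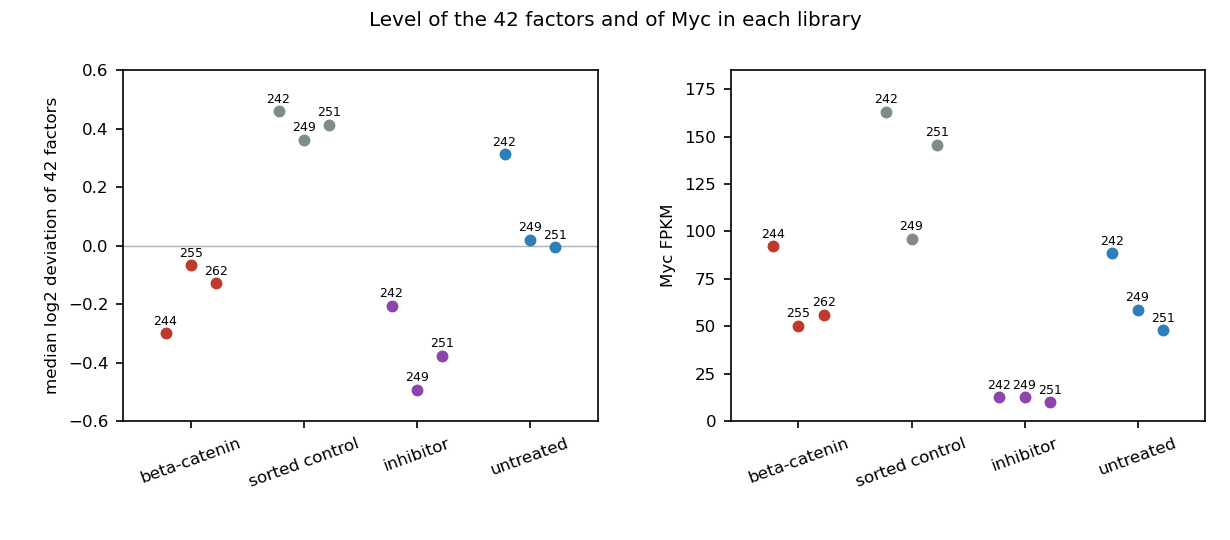
Left, median over the 42 factors of log2(FPKM + 1) minus the mean of each gene over 12 libraries; right, Myc FPKM; each point is a library, marked with its number. β-catenin libraries reach Myc levels of untreated cells (50.3 to 92.3 against 48.1 to 88.5 FPKM), while inhibitor libraries stay between 9.88 and 12.8 FPKM.

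Untreated cells, kept overnight and not sorted, were also set against the sorted controls; the sort and the night in culture cannot be told apart. Of the 42 factors 9 were called lower and 0 higher, where 4.01% of the 12513 genes tested were lower and 4.29% higher. At an unadjusted p under 0.05, 20 were lower and 0 higher, where 1822 and 1811 of the 12513 genes were. Voom called 500 of all genes lower and 436 higher, and 9 factors lower and 0 higher. The 9 called were Nop2, Nolc1, Rrp1b, Rrp12, Tsr1, Mybbp1a, Polr1a, Polr1b and Ddx21, and the median over the 42 was -0.27, against -0.0082 over all genes; 38 were below 0, as were 51.1% of all genes. Rrp1b, a nucleolar protein, had the lowest log2 fold change (log2 fold change -0.82 ± 0.12 SE, adjusted p = 0.0187), with 28.5 to 38.7 FPKM in untreated libraries and 56.2 to 63.3 FPKM in sorted controls. In 20 factors every untreated library was below every sorted control, where 18.1% of all genes were. Myc had a log2 fold change of -1.05 and did not pass (adjusted p = 0.0558), while it passed without untreated library 242 (adjusted p = 0.0393) and with a filter of 5 FPKM (0.0471). Without any 1 sorted control 0 factors were called, without untreated library 251 there were 2, and without untreated library 242 there were 21. Of all genes, 0.432%, 0.196% and 0.0571% were lower without sorted control 242, 249 and 251, 1.05% without untreated library 251 and 4.02% without untreated library 242. This comparison shares the sorted controls with the β-catenin one and the untreated libraries with the inhibitor one.

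Beyond the 42 factors, calls in β-catenin cells were again all lower. Of 112 other ribosome biogenesis genes, 48 were called lower in β-catenin cells and 0 higher, with a median log2 fold change of -0.29; that is 42.9% lower, against 17.7% of all genes. At an unadjusted p under 0.05, 61 were lower and 2 higher, where 3126 and 3019 of the 12813 genes tested were. Voom called 46 of the 112 lower and 0 higher. The count fell to 19 without β-catenin library 262 and to 15, 15 and 7 without sorted controls 242, 249 and 251, where 8.98% of all genes were lower without library 262 and 6.02%, 6.08% and 4.2% without those controls. Lyar, a nucleolar factor of ribosomal RNA processing, had 55.4, 73.6 and 66.5 FPKM in β-catenin libraries, against 129, 133 and 144 FPKM in sorted controls (log2 fold change -1.05 ± 0.12 SE, adjusted p = 0.00321). Taf1d, part of the promoter selectivity factor of RNA polymerase I, had 34.7, 41.2 and 37.3 FPKM in β-catenin libraries and 59.96, 66.8 and 67.8 FPKM in sorted controls (log2 fold change -0.77 ± 0.096 SE, adjusted p = 0.00407). Brix1, a large subunit assembly factor, had a log2 fold change of -0.65 (adjusted p = 0.00679), and Naf1, needed to assemble box H/ACA particles, of -0.76 (adjusted p = 0.0134). The groups of these genes were apart. Without β-catenin library 262 or sorted controls 242 or 251 the adjusted p of Naf1 was 0.0528, 0.0571 and 0.0609.

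With the inhibitor 5 of the 112 were lower (Exosc5, Lyar, Naf1, Rcl1 and Ubtf) and 2 higher (Shq1 and Utp15), with a median of -0.11; the 5 are 4.46% of the 112, below the 9.6% of all genes called lower, and the 2 are 1.79%, against 8.47% of all genes called higher. Ubtf, Shq1 and Utp15 were named after their values were seen. Exosc5, a subunit of the RNA exosome, had 19.3, 21.7 and 23.9 FPKM in inhibitor libraries, against 54.6, 44.4 and 51.0 FPKM in untreated libraries (log2 fold change -1.17 ± 0.13 SE, adjusted p = 0.00175). Rcl1, which acts in small subunit processing, had 13.9, 12.6 and 14.3 FPKM in inhibitor libraries and 24.8, 23.0 and 21.2 FPKM in untreated libraries (log2 fold change -0.72 ± 0.12 SE, adjusted p = 0.00933). Both were lower in every pair, and their groups did not overlap. Lyar had 74.6, 53.3 and 67.7 FPKM in inhibitor libraries, against 146, 96.5 and 102 FPKM in untreated libraries (log2 fold change -0.79 ± 0.20 SE, adjusted p = 0.0370), and its adjusted p was 0.0665, 0.0651 and 0.0976 without inhibitor libraries 242, 249 and 251 and 0.0851 and 0.0850 without untreated libraries 242 and 251. With no filter and with median centring it was 0.0860 and 0.0637. Naf1 had 4.94, 4.05 and 6.81 FPKM in inhibitor libraries and 10.8, 9.16 and 8.99 FPKM in untreated libraries (log2 fold change -0.78 ± 0.20 SE, adjusted p = 0.0415), with 0.126 and 0.0706 without inhibitor libraries 242 and 249 and 0.138, 0.0865 and 0.103 without untreated libraries 242, 249 and 251. With no filter, quantile normalization and median centring the adjusted p of Naf1 was 0.0988, 0.0915 and 0.0632. With the block 16 of the 112 were lower and 3 higher, where 16.0% of all genes were lower. Without 1 library at a time the calls in either direction were 3, 5 and 3 (inhibitor 242, 249 and 251) and 2, 6 and 2 (untreated 242, 249 and 251). In untreated cells against sorted controls, limma called 10 of the 112 (8.93%) lower and 0 higher, where 4.01% of all genes were lower. At an unadjusted p under 0.05, 31 were lower and 1 higher, where 1822 and 1811 of the 12513 genes tested were. Voom called 9 of the 112 lower and 0 higher. The 10 were led by Cirh1a (-0.70), Mdn1 (-0.68), Taf1d (-0.64) and Sdad1 (-0.62). None of the 112 was called without any 1 sorted control.

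Genes of cytosolic and mitochondrial ribosomal proteins are given for comparison. In β-catenin cells 46 of 80 cytosolic ribosomal protein genes were called lower and 0 higher (59 and 0 at an unadjusted p under 0.05; voom 46 and 0), with a median log2 fold change of -0.39, and 24 of 76 mitochondrial ones were lower, with 2 higher and a median of -0.24. Of all genes 17.7% were lower and 18.6% higher. Quantile normalization left 16 of the 80 cytosolic genes lower, with a median of -0.15, while it called 37 of the 42 factors lower, where 22.6% of all genes were. With the inhibitor 7 of the 80 cytosolic and 10 of the 76 mitochondrial genes were lower and 1 cytosolic gene was higher, with medians of -0.22 and -0.16. Their shares called lower, 8.75% of the cytosolic and 13.2% of the mitochondrial genes, stood beside 9.6% of all genes, and the median over all genes was -0.029. Of 12 proliferation genes 7 were called lower and 0 higher in β-catenin cells, where 17.7% of all genes were lower, with summed FPKM of 1877 to 2640 in β-catenin libraries and 3331 to 3433 in sorted controls. With the inhibitor Mcm4, Mcm5, Mcm7 and Pcna of the 12, named after their values were seen, were lower and 0 higher, where 9.6% of all genes were lower, with sums of 1911 to 2681 FPKM in inhibitor libraries and 2669 to 3351 FPKM in untreated libraries. The highest inhibitor library was thus just above the lowest untreated one. The part of proliferation genes in the changes of the factors was not tested.

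**Figure D5:**
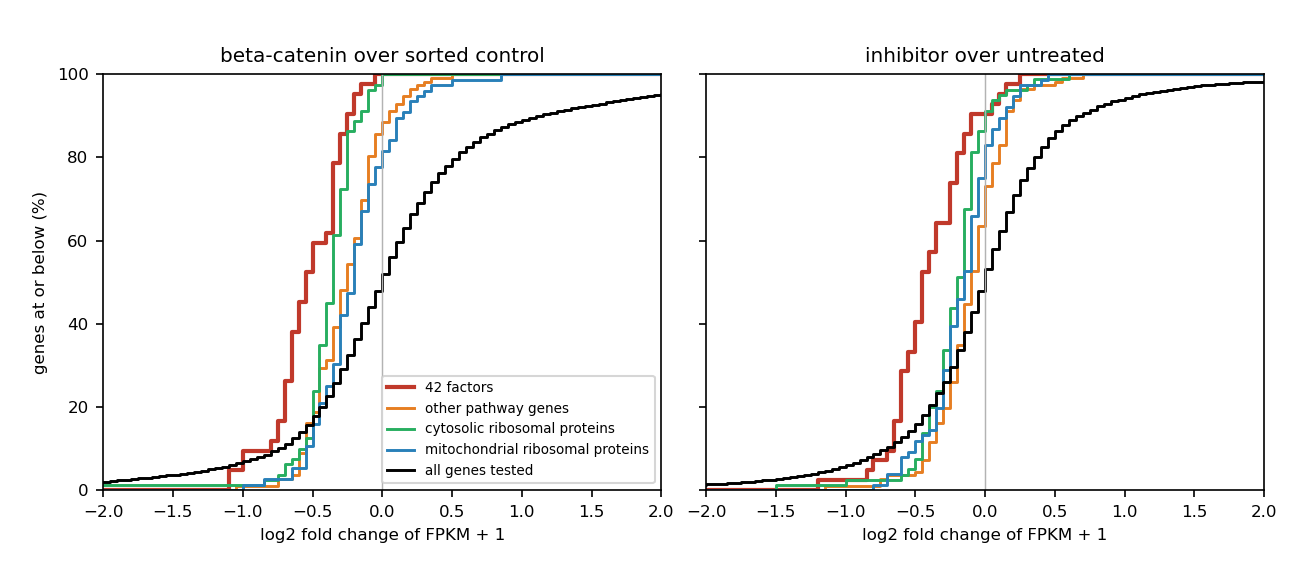
Cumulative share of genes (percent) at or below each log2 fold change of FPKM + 1, in steps of 0.05, for the 42 factors, 112 other pathway genes, cytosolic and mitochondrial ribosomal protein genes and all genes tested; genes beyond 2 in either direction are not drawn. In both panels the curve of the 42 factors is left of all other curves through the middle of its range, with medians of -0.57 in β-catenin cells and -0.47 with the inhibitor. The lists were chosen with earlier results of these data known, so the gap between their curves is not a test.

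A minority of the 42 genes held a feature of structure that the choice by symbol did not use. In GENCODE M21, 8 of the 42 (19.0%) hold annotated small nucleolar RNA genes on the same strand, against 190 of 10921 tested protein coding genes (1.74%). Nop56 holds 5 of them, Nop58 holds 4, Ncl, Wdr43 and Gnl3 hold 3 each, Ppan and Tsr1 hold 2 each and Dkc1 holds 1, which makes 23. Exons of 21 factors share bases with another gene and 18 of these with a gene on the opposite strand, the longest being 1240 bases between Tsr1 and Srr, 598 between Noc2l and Samd11 and 361 between Bysl and Ccnd3. The sources used here do not say whether strand was used in counting, so reads there cannot be assigned to 1 gene, and the level of Npm1, which has processed pseudogene copies, is likewise uncertain.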

How the data were processed

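The authors deposited 1 table of FPKM per gene for 12 libraries in 4 groups of 3, which is what was analysed. Per the submitters' processing notes, HISAT2, HTSeq and Cufflinks were used with GRCm38 (mm10); the notes give no roles or versions for these tools, and the labels do not say whether strand was used. The 42 genes, the lists of other genes and the roles were chosen with earlier results of these data known.

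Each comparison was fitted over all genes that reached 1 FPKM in 3 or more of the libraries it used, with limma 3.58.1 in R 4.3.3 (lmFit, eBayes with trend, 2-sided) on log2(FPKM + 1), with Benjamini-Hochberg adjustment; the pseudocount of 1 understates changes of low genes. SE is that of limma. The β-catenin, inhibitor and untreated comparisons used the 6 libraries of their groups, and the difference of the 2 effects a 4-group model of 12. None of these main fits used the library number as a block. Fragments were recovered from the steps of FPKM (25186 genes, 100% of values rebuilt within a relative tolerance of 1e-08) and used for depth and for voom. The fits were tested on simulated data. Values for each library are printed for Myc, for the 2 factors of each role with the largest change in β-catenin cells and the 1 with the largest change with the inhibitor, and for any factor whose 2 effects differed; Nop10, Bop1, Polr1a and Rrp1b were added after their values were seen. Pathway genes beyond the 42 were named as the 4 called genes with the largest change in each comparison.

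Same-numbered inhibitor and untreated libraries deviated together over 12685 genes (Pearson r of 0.61 for 242, 0.77 for 249 and 0.36 for 251), each above the limit of 0.1 set for pairing, so the numbers were taken to pair these libraries. Other numbers also deviated together: inhibitor 251 with untreated 242 (0.38, above its own number) and inhibitor 242 with untreated 251 (0.25). Alternatives were another pseudocount, other filters and scalings, robust eBayes, voom, a model of all groups, the replicate block and leaving out libraries.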

Additional observations from a re-analysis of the deposited data

Results flagged for a closer look

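For 5 genes the β-catenin effect and the inhibitor effect differed in the limma contrast over 12 libraries, among the factors and the 4 other pathway genes with the largest differences called. Each effect was taken against its own controls, and these differ in the sort and the night in culture. Nop2 and Taf1d were also called lower in untreated cells against sorted controls (log2 fold changes -0.58 and -0.64). The part of this in the differences was not tested. For Nop2 the β-catenin effect minus the inhibitor effect was -0.59 on the log2 scale, as described above. For Taf1d it was -0.98 (adjusted p = 0.0178), with log2 fold changes of -0.77 in β-catenin cells and 0.21 with the inhibitor; without sorted control 251 the adjusted p was 0.0526. For Exosc5 it was 0.71 (adjusted p = 0.0201), with -0.47 in β-catenin cells and -1.17 with the inhibitor, and the call was lost without β-catenin library 262, sorted control 242 or 249, or inhibitor library 242 (adjusted p 0.0575, 0.0539, 0.0555 and 0.0508) and with median centring (0.58 on the log2 scale, adjusted p = 0.0686), which moved the median difference of all genes by -0.13. For Utp15 it was -0.66 (adjusted p = 0.0292), with -0.14 in β-catenin cells and 0.52 with the inhibitor (the call was lost without β-catenin library 262, sorted control 242, 249 or 251, inhibitor library 242 or 251, or untreated library 249 or 251, with adjusted p values of 0.0739, 0.0577, 0.0769, 0.0770, 0.0740, 0.0646, 0.0671 and 0.0617). For Ltv1 it was -0.54 (adjusted p = 0.0434), with -0.54 in β-catenin cells and 0.0030 with the inhibitor (the call was lost without these 8 libraries in turn and without β-catenin library 244, with adjusted p values of 0.0814, 0.0646, 0.0860, 0.115, 0.101, 0.0893, 0.0949, 0.0940 and 0.0714, and with no filter and with voom, with 0.0597 and 0.0605). Without both unsorted libraries numbered 249 the adjusted p was 0.0545 for Utp15 and 0.0784 for Ltv1. Rrp8 and Imp4 were also called lower in this contrast, which makes 5 lower and 1 higher of the 112 other pathway genes. These are 4.46% and 0.893% of the 112, where 3.05% of all genes were called lower and 6.07% higher.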

How the results depend on the processing

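In β-catenin cells the count of factors called (30) was 17 to 32 when 1 library was left out, and that of other pathway genes (48) 7 to 50. With the inhibitor the 12 factors became 5 with no filter on low values, 6 with median centring, 22 with all 12 libraries in the fit and 23 with the replicate block, and 3 to 7 when 1 library was left out. The 7 other pathway genes called with the inhibitor became 3 with no filter, 4 with quantile normalization, 3 with median centring, 13 with all libraries, 19 with the block and 2 to 6 when 1 library was left out. For the difference of the 2 effects the count of 1 factor became 0 with no filter, with voom, without both unsorted libraries numbered 249, and without these and library 244, and 0 to 3 when 1 library was left out; that of the 6 other pathway genes became 3 with no filter and 3 with voom, and 1 to 9 when 1 library was left out. With the number as a block through an estimated correlation, 1 factor and 7 other pathway genes were called. For untreated cells against sorted controls the numbers were not taken to pair libraries (Pearson r of 0.14, 0.12 and 0.00051); there the 9 factors became 3 with no filter and 3 with the block (Mybbp1a, Polr1a and Rrp1b, where 1.16% of all genes were lower; Myc had an adjusted p of 0.0484), and 0 to 21 when 1 library was left out, and the 10 other pathway genes became 3 with no filter, 6 with all libraries, 2 with the block, 6 without both unsorted libraries numbered 249, and 0 to 22 when 1 library was left out. Of all genes, 3.12% were lower with the inhibitor and 0.584% in untreated cells with no filter on low values, and 12.5% with the inhibitor with all libraries. The cause of these moves was not tested. The log2 fold change of Polr1e with the inhibitor, -0.14, turned to 0.063 without inhibitor library 249 (adjusted p = 0.894) and to 0.092 without untreated library 242 (adjusted p = 0.859), its range over libraries left out being -0.33 to 0.092. Depth was at least 700 fragments for each factor in every library.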
